A study of Mus musculus with 10 samples.

Results

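The phase II conjugation enzymes are the uridine diphosphate glucuronosyltransferases (UGTs), the cytosolic sulfotransferases (SULTs) and the glutathione S-transferases (GSTs). They were taken from the deposited gene table by symbol: genes beginning with Ugt, Sult or Gst followed by a family letter where one is used and a number, with symbols containing -ps left out. This gave 62 of the 45707 rows, made up of 22 UGT, 19 SULT and 21 GST genes. The data were RNA sequencing of jejunum from 5 Vil-Cre and 5 Vil-Cre:NDI1 mice, 1 library per mouse. Both genotypes carried Villin-Cre, which is active in intestinal epithelium, and the Vil-Cre:NDI1 mice also carried a lox-stop-lox NDI1 allele at ROSA26. This allele encodes a yeast (Saccharomyces cerevisiae) NADH dehydrogenase made of a single subunit. All 10 animals were male littermates of 8 to 12 weeks that had been fasted overnight for 16 to 18 h and gavaged with water, and jejunum was collected 1 h later. The comparison asks whether these enzymes differ when the intestinal epithelium carries the yeast enzyme in the absence of any drug.

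Conjugation makes small hydrophobic molecules more soluble so that they can be pumped out of the cell. UGTs sit in the endoplasmic reticulum and transfer glucuronic acid from UDP-glucuronate to bilirubin, steroids, drugs and plant phenols. SULTs transfer sulfate from PAPS to phenols, steroids and alcohols in the cytosol, and GSTs join glutathione to electrophiles such as lipid peroxidation products. The small intestine meets dietary substrates before the liver does, and its absorptive enterocytes are a well known site of all 3 reactions.

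The table gives normalized counts, which are reads per gene divided by 1 size factor per library. Between 10145705 and 12371530 reads fell on genes in each library. NDI1 had 0 reads in 4 Vil-Cre libraries and 1 read in Vil-Cre 3, against 1002 to 2659 reads in the 5 Vil-Cre:NDI1 libraries, as labelled. The enterocyte markers were present in every library, and all 12 of them passed the filter for testing. The tissue was whole jejunum, so fewer cells of a type and less RNA per cell cannot be told apart. Nothing in the labels ties same-numbered mice of the genotypes to each other, and separate animals are the replicates.

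Testing was limited to genes that reached a normalized count of 10 in 5 or more of the 10 mice. By this rule 33 members were tested, 9 UGT, 5 SULT and 19 GST genes. A further 16 had from 4 to 48 reads in all 10 libraries together, with no normalized count above 8.74. The remaining 13 had no read among 111332816 reads on genes, which allows up to 3 reads. This limit covers counting error only.

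Levels between genes are given as normalized counts per kilobase of annotated exon. Ugt1a1, which glucuronidates bilirubin, stood highest among the UGT genes at 1813 ± 292 per kilobase (SD, n = 10 mice). Ugt2b34 followed at 1134 ± 176, then Ugt2a3 at 557 ± 198 and Ugt1a7c at 524 ± 76.6. The step from Ugt1a1 to Ugt2b34 held in 10 of 10 mice, whereas Ugt2a3 was above Ugt1a7c in only 7 of 10 and their difference was smaller than its spread between mice (mean log2 difference -0.02, SD 0.55). The next gene, Ugt2b35, lay far lower at 60.5 ± 21.7 per kilobase, and Ugt2b5 was close to it at 44.1 ± 12.2. The 3 highest UGT genes held 83.2% of the summed level of the superfamily.

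Sult1d1, a phenol and catecholamine sulfotransferase, led the SULT genes at 1609 ± 404 per kilobase. It was followed by Sult1b1, which acts on phenols and thyroid hormones, at 891 ± 151 and by Sult2b1, a cholesterol sulfotransferase, at 588 ± 46.9. The order of these 3 genes held in 10 of 10 mice, and together they made up 97.8% of the summed SULT level. Sult1a1, a phenol sulfotransferase, was measured at 53.2 ± 9.70 and Sult4a1, which is best known from brain, at 10.1 ± 3.98 per kilobase. Sult1c1, Sult1e1, Sult3a1 and Sult2a1 to Sult2a7 had no read in any library.

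The GST level was spread over more genes, and the top 3 held 60.7% of it. Gsto1, an omega class enzyme that reduces dehydroascorbate, stood at 2069 ± 342 per kilobase and Gstp1, of the pi class, at 1768 ± 233, with Gsto1 higher in 10 of 10 mice. Gsta1 was at 1046 ± 441 and Gstm3 at 901 ± 529, and Gsta1 was the higher in 8 of 10 mice. Gstm1 at 541 ± 360 and Gstp2 at 501 ± 80.5 could not be ordered, since Gstm1 was higher in 3 of 10 mice. Every GST gene had at least a few reads, but Gsto2 and Gstt4 did not pass the filter.

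**Figure D1:**
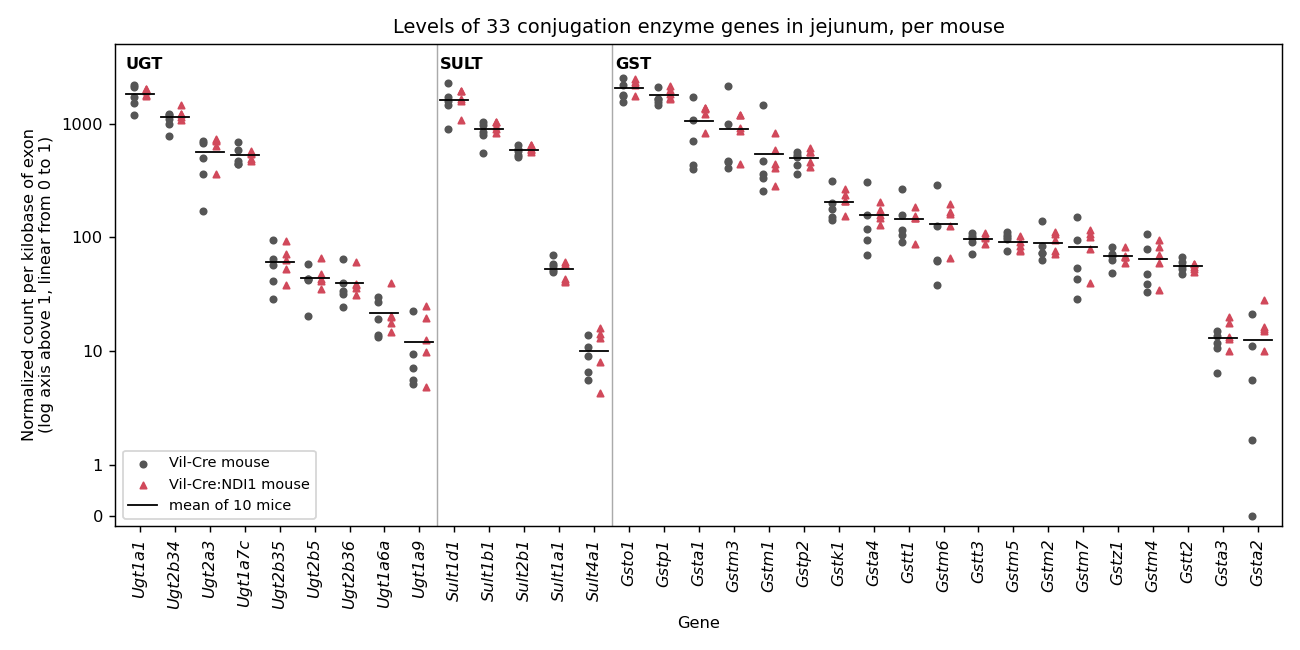
Normalized count per kilobase of exon (log axis above 1, linear below) for the 33 tested genes, ordered by mean level within the UGT, SULT and GST superfamilies. Each point is a mouse, grey circles for Vil-Cre and red triangles for Vil-Cre:NDI1, and the black line is the mean of 10 mice; the genotypes overlap for every gene, and Gsta2 reaches 0 in 1 Vil-Cre mouse.

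Several of these genes share long runs of sequence with other genes. The UGT1A genes lie together at chr1:88055388-88220002 (GRCm38, GENCODE M21 annotation) and each joins its own first exon to a shared set of later exons. Of the 100-base stretches of annotated Ugt1a1 transcript, 77.4% also occur on either strand in transcripts of at least 1 other gene, member or not. For Gsta1 the share is 80.6%, for Gstp2 46.9%, for Gsta2 28.4% and for Gstp1 25.1%. How such reads were divided depends on the authors' counting, so the values of these genes are uncertain. Some genes without a read share much as well, 94.9% for Ugt2a1, 70.9% for Ugt1a6b and 54.3% for Ugt1a10. Their values of 0 are uncertain in the same way. Ugt2b34, Ugt2a3, Gsto1, Sult1b1 and Sult1d1 shared 0.595% or less, and 13 tested members shared none.

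The sum over a cluster does not depend on the split between its own members. In Vil-Cre replicates 1 to 5 the 9 UGT1A genes summed to 5846, 5369, 7868, 7232 and 4592 normalized counts, and in Vil-Cre:NDI1 replicates 1 to 5 to 6805, 6137, 6953, 5986 and 6895. All 5 Vil-Cre:NDI1 sums lay inside the Vil-Cre range. The 10 UGT2 genes at chr5:86889767-87490871 summed to 5903 ± 1346 in Vil-Cre and 6981 ± 785 in Vil-Cre:NDI1 mice (SD, n = 5), again with overlapping ranges.

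Promoter windows of 250 bases before to 50 bases after the start were available from RefSeq (GRCm38.p6) for 54 of the 62 members, 65 windows in all. The letters GTTAATNAT, the first part of the site of the homeodomain factor HNF1, were searched on both strands, since HNF1 is known to act on UGT1A promoters in liver and gut. They were found in 8 of the 65 windows (12.3%) and in 0.801% of 32851 windows of the same length. The 8 matches are shown with 20 bases on either side, with the match in capitals, because they include the highest UGT and SULT genes as well as genes without any read. Each is given 5′ to 3′ along its gene, and none overlapped another searched motif. The 3 UGT1A matches lie on the opposite strand, so their capitals show the reverse complement.
Ugt1a1 (chr1:88211895-88211943, plus strand): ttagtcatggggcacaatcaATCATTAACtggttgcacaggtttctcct
Ugt1a9 (chr1:88070665-88070713, plus strand): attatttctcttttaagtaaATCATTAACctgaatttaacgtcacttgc
Ugt1a10 (chr1:88055317-88055365, plus strand): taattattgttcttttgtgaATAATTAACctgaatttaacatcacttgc
Sult1d1 (chr5:87569057-87569105, minus strand): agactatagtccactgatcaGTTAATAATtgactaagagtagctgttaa
Sult2a3 (chr7:14123071-14123119, minus strand): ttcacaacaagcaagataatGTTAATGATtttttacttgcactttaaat
Sult2a4 (chr7:13989667-13989715, minus strand): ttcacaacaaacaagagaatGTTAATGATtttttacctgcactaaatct
Sult2a5 (chr7:13623919-13623967, plus strand): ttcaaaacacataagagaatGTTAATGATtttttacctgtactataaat
Sult2a6 (chr7:14254913-14254961, minus strand): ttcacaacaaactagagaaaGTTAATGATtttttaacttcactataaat

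The genes that hold these letters ranged from the highest of their superfamily to genes with no read. Ugt1a1 and Sult1d1 were the highest genes of their superfamilies, Ugt1a9 was the lowest UGT gene tested, at 12.2 ± 7.58 per kilobase, and Ugt1a10 and the Sult2a genes shown had no read. The Sult2a windows resemble each other and are copies of 1 cluster. Those of Ugt1a9 and Ugt1a10 resemble each other as well. Neither set holds separate observations. The core of the antioxidant response element, TGACNNNGC, was in 3 member windows (4.62%), those of Gsta3, Gstm5 and Gstm7, against 12.4% of all windows. The core of the xenobiotic response element, TNGCGTG, was in those of Gsta2, Sult1d1 and Ugt1a5 (4.62%), against 5.07% of all. A match is a run of letters in this window and does not show a bound site.

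No member differed between the genotypes past an adjusted p of 0.05 in limma. The count was 0 of 33, beside 1 of 14301 genes tested (0.00699%), that gene being NDI1. At an unadjusted p under 0.05, 1 member, Gsta2, was on the higher side in Vil-Cre:NDI1 mice, where 2.13% of all genes were, and 0 were on the lower side, where 2.11% of all genes were. In 0 of 33 members did the genotypes separate without overlap, against 0.699% of all genes. With no filter on low values it was 1 of 49 members, Sult5a1, against 0.548% of 26289 genes. DESeq2 and edgeR, run on the reads of all 10 libraries, likewise called 0 members, beside 31 of 16976 and 1 of 14290 genes. Each had 0 members at an unadjusted p under 0.05, and the share of all genes at that p is not given for them.

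**Figure D2:**
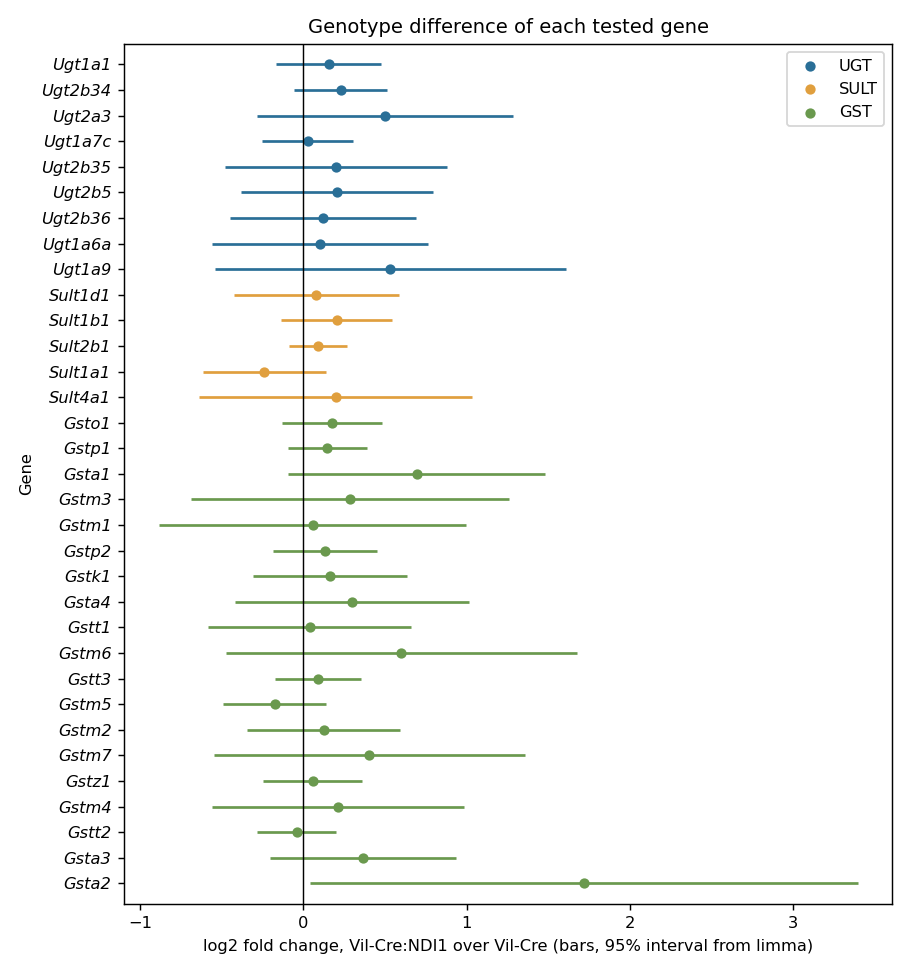
Log2 fold change of Vil-Cre:NDI1 over Vil-Cre (x axis) for each of the 33 tested genes (y axis), coloured by superfamily, with 95% intervals from limma. The intervals of 32 genes include 0, and that of Gsta2 runs from 0.04 to 3.39.

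The log2 fold changes of 30 of the 33 members were above 0, where 51.2% of all tested genes were. Their median was 0.16 on the log2 scale, against 0.01 for all genes, and the superfamily medians were 0.20 for UGT, 0.09 for SULT and 0.16 for GST. These are counts of signs and not of changed genes, and members of a cluster do not vary independently. The count of 30 fell to 20 without Vil-Cre 5 and to 26 when libraries were scaled to equal totals. The 12 enterocyte markers also all had fold changes above 0, with a median of 0.23, and none passed the test. Their summed normalized counts were 406178 to 662376 in Vil-Cre and 605882 to 790810 in Vil-Cre:NDI1 mice, with Vil-Cre 5 lowest of all 10 mice. No marker was at 0, and the part of the enterocyte share in the sign count was not tested. Of the other marker lists, the largest medians were -1.13 for 6 tested hepatocyte markers and 1.01 for 4 red blood cell markers. The next was -0.46 for 6 tuft cell markers, and 0 genes passed the adjusted threshold in any of these. At an unadjusted p under 0.05 in limma, 3 red blood cell markers were on the higher side, where 2.13% of all genes were. On the lower side were 2 hepatocyte markers and 1 tuft cell marker, where 2.11% of all genes were. The genotypes did not overlap for 1 tuft cell and 1 enterocyte marker, against 0.699% of all genes.

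The intervals show how large a difference these mice leave possible. For 24 of 33 members (72.7%) the 95% interval lay within a 2-fold change in either direction, against 79.6% of all tested genes. The rest of the members were mostly alpha and mu class GST genes. Sult2b1 was the most closely bounded of the named members, from -0.09 to 0.27 on the log2 scale. Gstp1 ran from -0.10 to 0.39, Ugt1a7c from -0.25 to 0.30 and Ugt1a1 from -0.17 to 0.48.

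Ugt1a1 (chr1:88211959-88218997, plus strand) gave 3781, 3404, 4814, 4633 and 2658 normalized counts in Vil-Cre replicates 1 to 5 and 4451, 3946, 4297, 3870 and 4468 in Vil-Cre:NDI1 replicates 1 to 5. The Vil-Cre values enclosed all of the Vil-Cre:NDI1 values (log2 fold change 0.15 ± 0.15 SE, adjusted p = 0.998). Ugt2b34 (chr5:86889767-86906937, minus strand), a broad-specificity UGT of the cluster on chromosome 5, gave 4691, 4253, 5212, 5110 and 3348 in Vil-Cre and 4925, 4646, 5199, 5239 and 6288 in Vil-Cre:NDI1 mice. Its fold change was 0.23 ± 0.13 (adjusted p = 0.998), and 3 of the Vil-Cre:NDI1 values lay inside the Vil-Cre range.

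Ugt2a3 (chr5:87324972-87337195, minus strand), a UGT of the gut and liver, ran lower in 3 of the 10 mice. Its normalized counts were 1061, 759, 1497, 1443 and 363 in Vil-Cre and 1510, 1340, 1498, 762 and 1556 in Vil-Cre:NDI1 mice. Vil-Cre 5 was the lowest mouse, followed by Vil-Cre 2 and Vil-Cre:NDI1 4, and the last of these stood apart from its own group. The fold change was 0.50 ± 0.36 (adjusted p = 0.998) and 0.17 without Vil-Cre 5. Ugt1a7c differed least, with 2207 ± 451 in Vil-Cre and 2217 ± 178 in Vil-Cre:NDI1 mice (SD, n = 5). Its fitted fold change of 0.03 turned negative when libraries were scaled to equal totals. Ugt2b35 had 193 ± 84.1 and 214 ± 68.2, Ugt2b5 had 77.3 ± 25.5 and 86.5 ± 21.2, and Ugt1a9 had 21.8 ± 15.7 and 31.5 ± 17.7, in Vil-Cre and Vil-Cre:NDI1 mice respectively.

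Sult1d1 (chr5:87554645-87569027, minus strand) gave 3856, 3602, 4224, 5570 and 2205 normalized counts in Vil-Cre and 4762, 3853, 4772, 2658 and 4073 in Vil-Cre:NDI1 mice. The lowest mouse of each genotype, replicate 5 and replicate 4, lay well under the rest of its group, and the fold change was 0.08 ± 0.23 (adjusted p = 0.998). Sult1b1 (chr5:87513339-87538195, minus strand) gave 2326 ± 530 in Vil-Cre and 2628 ± 245 in Vil-Cre:NDI1 mice. Sult2b1 (chr7:45729983-45784669, minus strand) was the steadiest named member, with 2338, 2540, 2274, 2105 and 2002 in Vil-Cre and 2221, 2543, 2309, 2349 and 2545 in Vil-Cre:NDI1 mice. Its highest mouse was 1.27 times its lowest.

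Sult1a1 (chr7:126672865-126676432, minus strand) was 1 of the 3 members with a fold change below 0. It gave 107, 88.6, 75.1, 83.9 and 78.7 in Vil-Cre and 92.1, 88.4, 62.9, 64.6 and 61.0 in Vil-Cre:NDI1 mice. Of the latter values, 3 were under every Vil-Cre value and the others were not (log2 fold change -0.24 ± 0.17, adjusted p = 0.998, exact two-sided permutation p = 0.159). Sult4a1 had 23.1 ± 8.26 in Vil-Cre and 27.8 ± 11.96 in Vil-Cre:NDI1 mice. The other members below 0 were Gstm5 at -0.17 and Gstt2 at -0.04.

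Among the GST genes the widest spread lay in the alpha and mu classes. The 7 mu class genes lie together at chr3:107895821-108044894 and 3 of the 4 alpha class genes at chr9:78182774-78355788. Alpha class enzymes are known for reducing lipid hydroperoxides and for conjugating hydroxynonenal, and mu class enzymes for conjugating epoxides and quinones. Gsta2 (chr9:78331018-78355788, minus strand) was the member with the smallest p. It gave 6.54, 0, 25.0, 13.1 and 1.94 normalized counts in Vil-Cre and 17.6, 19.1, 18.4, 11.8 and 32.9 in Vil-Cre:NDI1 mice. The low values were all in Vil-Cre mice 1, 2 and 5, while Vil-Cre 3 exceeded 4 of the 5 Vil-Cre:NDI1 mice. The fold change was 1.72 ± 0.77 (p = 0.0455, adjusted p = 0.998 in limma), and the exact two-sided permutation p was 0.0794. This value depended on 1 mouse and on the pseudocount: it was 1.07 without Vil-Cre 2, 0.84 with a pseudocount of 8, 2.48 with a pseudocount of 0.1, and 1.09 in DESeq2 and 1.07 in edgeR on all 10 libraries.

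Gsta1 (chr9:78230656-78242684, plus strand) was expressed at a far higher level, again with Vil-Cre 2 and Vil-Cre 5 lowest. It gave 677, 381, 1649, 1033 and 411 in Vil-Cre and 1283, 1154, 1316, 788 and 1305 in Vil-Cre:NDI1 mice. The genotypes overlapped because of Vil-Cre 3 and Vil-Cre 4 (fold change 0.69 ± 0.36, adjusted p = 0.998, exact two-sided permutation p = 0.159). Gsta3, the alpha class gene on chromosome 1 at chr1:21240589-21265661, gave 50.04 ± 14.3 in Vil-Cre and 64.2 ± 17.0 in Vil-Cre:NDI1 mice.

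Gstm1 (chr3:108012255-108017973, minus strand) gave 527, 492, 2133, 686 and 373 in Vil-Cre and 605, 651, 865, 416 and 1215 in Vil-Cre:NDI1 mice. Gstm3 (chr3:107963696-107969283, minus strand) gave 611, 596, 2789, 1291 and 528 in Vil-Cre and 1127, 1203, 1545, 577 and 1548 in Vil-Cre:NDI1 mice. Vil-Cre 3 was the highest of all mice for both genes, and Vil-Cre 5 the lowest. The fold changes were 0.06 ± 0.43 for Gstm1 and 0.29 ± 0.44 for Gstm3 (adjusted p = 0.998 for both). For Gstm1 the sign turned to negative when libraries were scaled to equal totals. Gstm6 ran from 75.8 to 579 in Vil-Cre mice, and its Vil-Cre:NDI1 values fell between 131 and 393. Gstm7 ran from 45.6 to 243 and from 63.7 to 187.

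**Figure D3:**
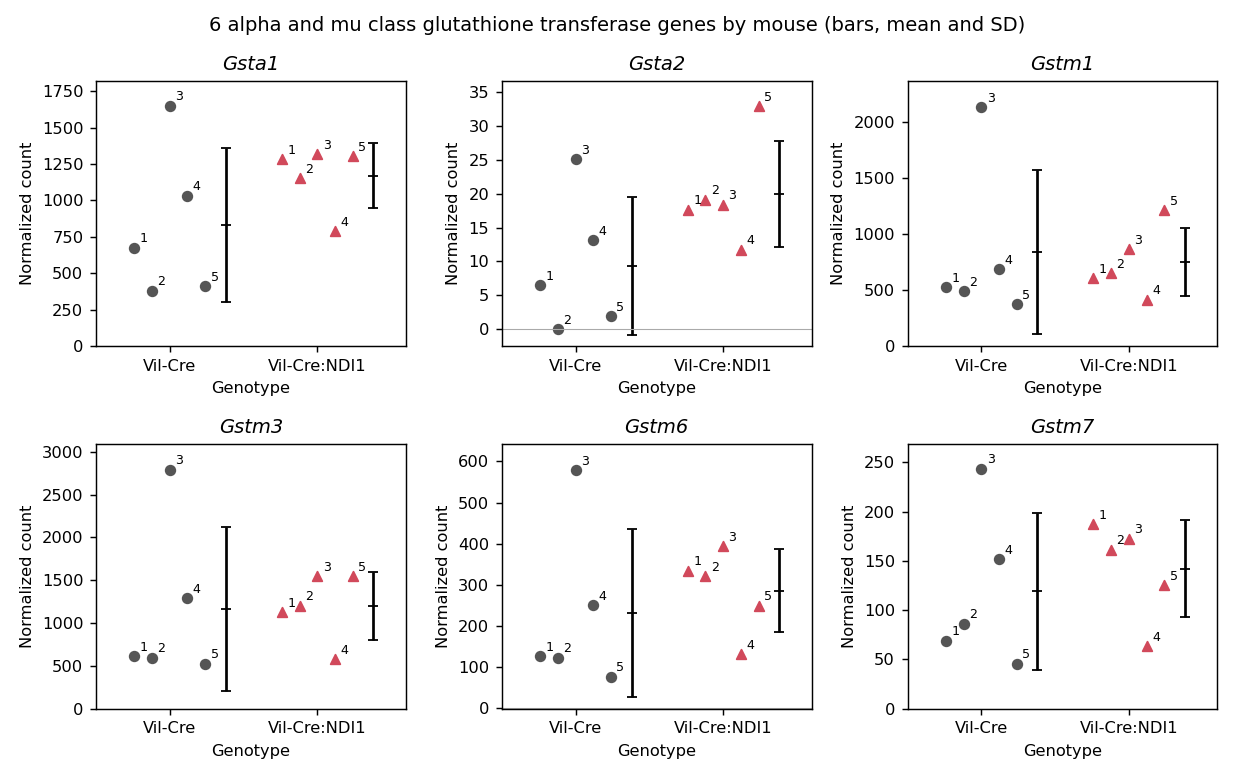
Normalized counts of 6 alpha and mu class GST genes (y axes, from 0 or below) by genotype (x axes). Each point is a mouse numbered by replicate, and the bars are mean and SD (n = 5); Vil-Cre 3 is the highest Vil-Cre mouse in each panel, and in Gstm1 it stands at 2133 against 373 to 686 for the others.

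The remaining named GST genes were steadier. Gsto1 (chr19:47854970-47864790, plus strand) gave 3949 ± 800 in Vil-Cre and 4422 ± 545 in Vil-Cre:NDI1 mice (fold change 0.18 ± 0.14, adjusted p = 0.998). Gstp1 (chr19:4035407-4037985, minus strand), which conjugates a wide range of electrophiles, gave 2603 ± 387 and 2870 ± 312. Gstp2, its neighbour at chr19:4040285-4046023, gave 532 ± 91.8 and 582 ± 90.1. None of the 3 genes varied by 2-fold across the 10 mice.

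The other 11 tested members had mean normalized counts from 82.6 to 372 over all mice. Their fold changes ran from -0.17 to 0.30, and the smallest unadjusted p among them was 0.25. In 8 of the 11 the Vil-Cre range enclosed every Vil-Cre:NDI1 value, as it did in 19 of all 33 tested members. The share of all genes with such a range was not computed. Vil-Cre 3 held the highest value of 15 of the 33 members and Vil-Cre 5 the lowest of 22, so these counts rest largely on 2 mice. Gstk1, the kappa class enzyme of mitochondria and peroxisomes, gave 210, 295, 462, 263 and 220 in Vil-Cre and 310, 309, 349, 224 and 392 in Vil-Cre:NDI1 mice. Vil-Cre 3 was again the highest mouse, and Vil-Cre 1 the lowest. Gstz1, which isomerizes maleylacetoacetate in tyrosine breakdown, stayed between 249.6 and 421 in all 10 mice. Both genes were named after their values were seen.

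The members varied more between mice than most genes did. In 20 of the 33 members the highest mouse was over 2-fold above the lowest on the value + 1 scale, or 60.6%, against 45.8% of all genes. In 9 (27.3%) it was over 4-fold, against 15.3%. The SD around the genotype means was 0.42 (median, log2 scale) for the members and 0.29 for all genes. For the mu class it was 0.80, for the alpha class 0.63 and for the theta class 0.19. The omega and pi classes were at 0.24 and 0.21. The SULT genes also lay under all genes, at 0.27, with 40% of them over 2-fold and 0% over 4-fold.

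Most of the extremes fell in a pair of control mice. Vil-Cre 3 held the highest value of 15 of the 33 members (45.5%) and of 11% of all tested genes. Vil-Cre 5 held the lowest value of 22 members (66.7%) and of 15.4% of all genes. No other mouse held the lowest value of more than 3 members. Vil-Cre:NDI1 5 held the highest value of 7 members, the next largest number.

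The classes did not move to the same extent. In Vil-Cre 3 the median member of the mu class lay 1.07 above its mean over mice on the log2 scale, that of the alpha class 0.98, that of the UGT genes 0.41 and that of the SULT genes -0.03. In Vil-Cre 5 the medians were -0.89, -1.09, -0.58 and -0.21. The enterocyte markers stood at 0.06 in Vil-Cre 3 and at -0.515 in Vil-Cre 5, so these markers were low in the mouse with low members and near their mean in the mouse with high ones. The median of all tested genes was within 0.01 of 0 in each mouse. The part of the enterocyte share in these values was not tested.

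**Figure D4:**
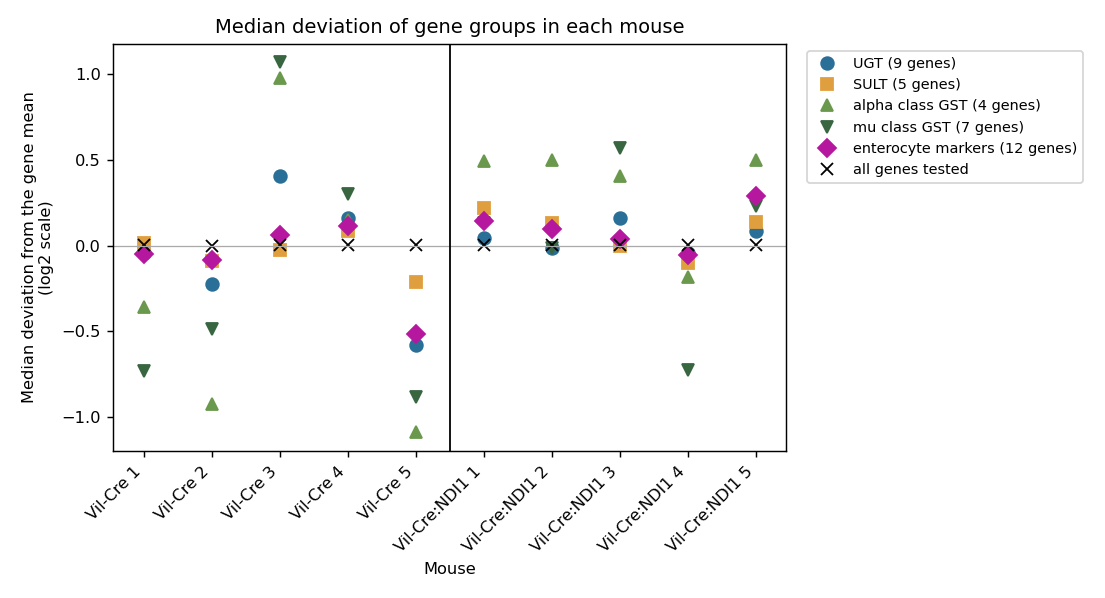
Median deviation from the gene mean on the log2 scale (y axis) in each of the 10 mice (x axis) for the UGT, SULT, alpha class GST and mu class GST genes, the enterocyte markers and all tested genes. The GST classes span the widest range, from -1.09 in Vil-Cre 5 to 1.07 in Vil-Cre 3, and all genes stay at 0.

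**Figure D5:**
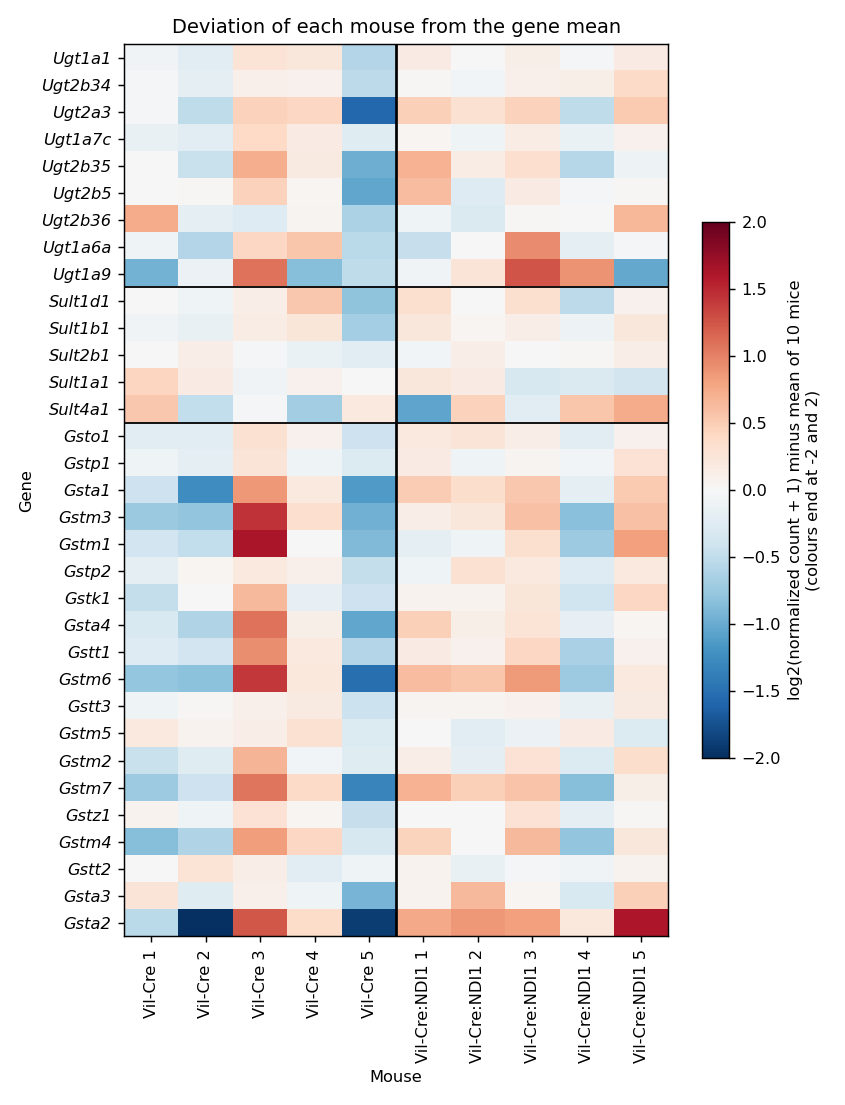
Each tested gene (rows) in each mouse (columns), coloured by log2(normalized count + 1) minus the mean of the gene over 10 mice, with colours ending at -2 and 2. The column of Vil-Cre 3 is mostly red over the GST genes and that of Vil-Cre 5 mostly blue over all genes, with most of the Vil-Cre:NDI1 values between them.

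The calls of DESeq2 depended on which control mice were in the fit. Vil-Cre 3 and Vil-Cre 4 were left out in a separate run because 1 read there was close to 1 normalized count (1.002 and 1.011). Whole reads were recovered from both, as from the other libraries (100% of non-zero values). They were not left out for their GST values, but the run was added after the data were seen. Their summed GST levels (12455 and 8128 per kilobase) are the highest of the Vil-Cre group. Leaving them out therefore raises the GST fold changes by itself, and the adjusted p-values of this run cannot weigh a genotype difference. Without them, DESeq2 called 5 of 33 members, all higher in Vil-Cre:NDI1 mice. Of 15601 genes it called 276 (1.77%) in either direction, 152 of them higher and 124 lower. These were Gsta1 (log2 fold change 1.26, adjusted p = 1.13e-05), Gstm6 (1.40, adjusted p = 0.00233), Gstm3 (1.05, adjusted p = 0.00842), Gsta2 (2.76, adjusted p = 0.0104) and Gsta4 (0.79, adjusted p = 0.0164). Each of the other 9 pairs of Vil-Cre mice was left out in turn in the same way, and 0 members were called in any of them. Those fits called few genes of any kind, from 33 of 17043 (without Vil-Cre 1 and Vil-Cre 5) to 109 of 19082 (without Vil-Cre 2 and Vil-Cre 4). The 0 members there therefore say little about the members. In edgeR on the same 8 libraries 0 members passed the adjusted threshold, with 14 on the higher side at an unadjusted p under 0.05, where 4.61% of 14830 genes were. DESeq2 had 19 there, where 6.63% of its genes were.

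The genes that supply the cofactors were tested beside the enzymes, and the values given for them are log2 fold changes. Of 5 genes for UDP-glucuronate, 5 were tested and 0 passed the adjusted threshold, the smallest p being that of Ugp2, which makes UDP-glucose (0.18, adjusted p = 0.998), followed by Slc35d1, a UDP-glucuronate carrier (0.12, adjusted p = 0.998). Of 10 genes for PAPS, 9 were tested and 0 passed. Bpnt1, which degrades the spent cofactor, had a log2 fold change of 0.25 and Papss2, which makes PAPS, of 0.29. Of 17 genes for glutathione, 16 were tested and 0 passed, and 3 had an unadjusted p under 0.05, all on the higher side, where 2.13% of all genes were. These were Chac2, a glutathione-degrading enzyme, at 0.42, Gclm, the modifier subunit of glutamate-cysteine ligase, at 0.30 and Ggt1, a gamma-glutamyl transferase, at 0.31. Ggt1 was named after its values were seen, as the last of these 3.

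The export pumps and the regulators gave no call either, and their values are also log2 fold changes. Of 9 efflux pump genes, 8 were tested and 0 passed, with Abcc3 at 0.43 and Abcc2 at 0.48, both exporters of conjugates. Abcc3 was the 1 pump gene at an unadjusted p under 0.05. Of the 20 regulator genes, such as nuclear receptors and intestinal transcription factors, 20 were tested and 0 passed, even at an unadjusted p under 0.05. The smallest p there belonged to Cdx1, an intestinal homeobox gene, at -0.14, and Ppara, a fatty acid receptor, at 0.39. Of 9 deconjugating enzymes, 8 were tested and 0 passed, with Arsb, a lysosomal sulfatase, at -0.56 and Nqo1, a quinone reductase kept in that list, at 0.25. Arsb was the 1 gene of that list at an unadjusted p under 0.05. Of 23 other conjugating and related enzymes, 19 were tested and 0 passed, with Clic1, a GST-fold protein, at 0.29 and Ephx1, the microsomal epoxide hydrolase, at -0.37. These 2 genes, 1 on either side, were those at an unadjusted p under 0.05.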

How the data were processed

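Jejunum RNA of 10 mice was sequenced with single-end reads. The authors used trimGalore! for trimming, STAR for alignment to GRCm38 plus the NDI1 sequence and Salmon for counting, and divided by DESeq2 size factors, so the deposited values are a signal, normalized counts per gene. The annotation release and strand setting are not given in the sources used here, so overlapping antisense genes cannot be told apart. No sample column was left unused. Genotypes came from the labels.

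The genotype comparison was a limma fit (limma 3.58.1, R 4.3.3) to log2(value + 1), trend included, of the 14301 genes that reached 10 in 5 or more mice, and p-values were adjusted by Benjamini-Hochberg over all of them with a threshold of 0.05. Genotype fold changes are given on the log2 scale, and those of genes with low counts depend on this pseudocount. Exact permutation tests used all 252 splits of 5 against 5 mice, whose smallest two-sided p is 0.00794. Whole reads were recovered by dividing by the value of 1 read (100% of non-zero values within 0.01 reads), and these were also tested with edgeR 4.0.16 and DESeq2 1.42.0. Lengths and positions came from GENCODE M21. Tests were tried on simulated data.

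Members and lists were chosen with earlier results of these data known. Named were, per superfamily, the 6 tested members highest per kilobase (SULT had 5), the 6 with the smallest p, the 6 with the largest SD within genotypes, and any without overlap; of other lists, genes past the threshold or else the 2 with the smallest p.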

Additional observations from a re-analysis of the deposited data

Results flagged for a closer look

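In 44 groups of 5 mice (22 named members in each genotype), 3 had a mouse whose gap to its nearest neighbour exceeded 0.71 of the range of its group. In independent groups not chosen for their spread, chance flags about 1 group in 20, which is 2.2 of 44. Here some members, Gstm1 and Ugt1a9 among them, were named for a large SD within genotypes. Members of a cluster also do not vary independently, so the count of 3 cannot be weighed against 2.2. Gstm1 in Vil-Cre 3 was at 2133 normalized counts, where the other Vil-Cre mice ran from 373 to 686. Ugt1a9 in Vil-Cre 3 was at 49.1, where the others ran from 11.2 to 20.8. Ugt2a3 in Vil-Cre:NDI1 4 was at 762, where the other Vil-Cre:NDI1 mice ran from 1340 to 1556.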

How the results depend on the processing

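The count of 0 members called held in limma under each of the other pseudocounts, filters, scalings and model settings, in DESeq2 and edgeR on 10 libraries, and without any 1 mouse. It rose to 5 in DESeq2 without Vil-Cre 3 and Vil-Cre 4, a run added after the data were seen, where 276 genes were called and 19 members had an unadjusted p under 0.05, against 14 in edgeR. All genes called numbered 1 in limma, 2 with a minimum of 50, 2 with array weights, 31 in DESeq2 and 1 to 3 without 1 mouse. Members at an unadjusted p under 0.05 went from 1 to 0 with a pseudocount of 0.1, a minimum of 50 and no trend. The replicate block, DESeq2 and edgeR also gave 0. The members at that p numbered 2 with array weights, 3 with no filter and 0 to 5 without 1 mouse, with 5 without Vil-Cre 3. The share of all genes at that p is not given for these settings, so these counts are not read as a result about the members. The members without overlap numbered 1 of 49 with no filter, against 0.548% of 26289 genes, Sult5a1, named after its values were seen, with 3.01 to 5.61 normalized counts in Vil-Cre and 1.17 to 2.94 in Vil-Cre:NDI1 mice, from 1 to 6 reads in a library. The cause was not tested. The median fold change of the members ran from 0.06 (without Vil-Cre 5) to 0.28 (without Vil-Cre 3).

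Of 22 named members, 17 kept their sign. Ugt1a7c turned to -0.037 with equal totals and -0.00364 in edgeR and was -0.0324 to 0.128 without 1 mouse. Gstm1 turned to -0.00619 with equal totals, -0.167 in DESeq2 and -0.178 in edgeR and was -0.158 to 0.47 without 1 mouse. Without 1 mouse Ugt2b35 ran from -0.0178 to 0.408, Ugt2b5 from -0.0274 to 0.348 and Sult1d1 from -0.11 to 0.224. Of the 22 fold changes, 17 shrank by over 1.5 times or changed sign without Vil-Cre 5, and 12 grew by over 1.5 times without Vil-Cre 3. The numbers for each other mouse were at most 7 larger and 6 smaller. Same-numbered mice did not deviate together (correlations of -0.116, 0.00236, 0.136, -0.108 and -0.0347), so the replicate block was only an alternative, with 0 members called. With 5 mice a group, intervals of the alpha and mu class genes are wide.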

Other observations

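Some members known chiefly from liver and kidney had a few reads, and these were named after their values were seen. Sult2a8, a hydroxysteroid sulfotransferase, had 8 of its 10 reads in Vil-Cre 1 and the others in Vil-Cre 5. Ugt3a2 had 11 reads in all, of which 7 were in Vil-Cre 1, and Ugt3a1 had 5, and both genes were at 0 in the 5 Vil-Cre:NDI1 mice. Ugt2b1 had 24 reads, with its highest normalized count of 8.41 in Vil-Cre 1. In limma without a filter, Ugt3a1 and Ugt3a2 had an unadjusted p under 0.05 but did not pass adjustment (adjusted p = 0.867 for both). Both entered that fit only through reads in Vil-Cre mice, so this p cannot weigh a genotype difference.

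Vil-Cre 1 was also the mouse with the most hepatocyte marker RNA. The 14 markers summed to 2638 normalized counts there and to 112 to 520 in the Vil-Cre:NDI1 mice, and 0 markers were at 0 in every library. Of the 14, 6 were tested and 0 passed the adjusted threshold. The sums of Vil-Cre 2, 3 and 5 were 1040, 1192 and 1295, and of these mice only Vil-Cre 5 had Sult2a8 reads. Vil-Cre 4, lowest of the Vil-Cre mice in the markers at 162, had 2 of the 5 Ugt3a1 reads. The part of hepatocyte RNA in these reads was not tested. The members without any read included Sult2a1 to Sult2a7, hydroxysteroid sulfotransferases known mainly from the liver of female mice.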
